A study of Mus musculus with 4 samples.

Results

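The neurotrophins and their receptors were followed through 6 genes of the 31053 listed in the count tables, Bdnf, Ntf3, Ntrk2, Ntrk3, Ngfr and Sort1, matched by gene identifier to GENCODE M21 symbols. The rule takes them by what they encode and uses no measured value, although earlier results of these data were known when they were chosen. Enhanced crosslinking and immunoprecipitation (eCLIP) of endogenous RPS2, which belongs to the small subunit of the ribosome, had been carried out in wild-type primary mouse cortical neurons, and total RNA had been taken from the same samples before the immunoprecipitation. There were 2 RPS2 IP libraries and 2 total RNA libraries, numbered 1 and 2 in each group, and the comparison asks how much of each mRNA was recovered with the ribosome for the amount of it present. The study's methods describe its neuron cultures as prepared from the cortex of E18 C57BL/6J embryos, with floxuridine added to limit dividing cells. All 4 libraries share this genotype and cell type, and the labels name no neurotrophin for any of them. The IP libraries are labelled as rRNA-depleted and the total RNA libraries as untreated, so a difference between the groups cannot be told apart from one made by depletion. The methods name depletion after library preparation without saying of which libraries, so total RNA may have been depleted too. The labels do not say that the replicate numbers are separate cultures, so the tests measure only the spread between these libraries.

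Neurotrophins are secreted growth factors that are made as longer precursors and cleaved before or after release. The mature factors bind Trk receptor tyrosine kinases, whose adaptors pass the signal to the Ras-MAP kinase, PI3 kinase-Akt and phospholipase C pathways, whereas the precursors bind the p75 receptor together with sortilin. In cortex, BDNF acting on TrkB is best known for its part in dendrite growth, synaptic plasticity and neuronal survival, and BDNF transcription is induced by neuronal activity. Of the members, Bdnf and Ntf3 encode the ligands BDNF and neurotrophin-3. Ntrk2 encodes TrkB, the receptor for BDNF, and Ntrk3 encodes TrkC, the receptor for neurotrophin-3. Ngfr encodes p75, which binds every neurotrophin, and Sort1 encodes sortilin, a sorting receptor of the secretory pathway that binds the BDNF precursor. Both receptor tyrosine kinase genes also produce truncated receptors that lack the kinase.

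The sequences around the start codons are shown because this is where a ribosome begins each of these proteins. Each run below reads 5′ to 3′ in GENCODE M21 transcripts (GRCm38, mm10), with the start codon in capitals between 6 bases of the leader and the first base after it.
Bdnf, 9 transcripts: agagtgATGa
Bdnf-202: acttttATGt
Bdnf-201: gccacaATGt
Ntf3, 2 transcripts: gatgccATGg
Ntf3-201: aaggtgATGt
Ntrk2, 7 transcripts: ctcgggATGt
Ntrk3, 3 transcripts: tcggagATGg
Ngfr: cgagcaATGa
Sort1, 2 transcripts: gcagcgATGg

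The Bdnf start codon shared by 9 transcripts lies at chr2:109723403-109723405 on the plus strand, and these transcripts encode one precursor of 249 residues behind different leaders of 102 to 520 bases. The other two Bdnf starts, at chr2:109709563-109709565 and chr2:109675337-109675339, lie upstream and lengthen the precursor to 289 and 257 residues. All 7 coding Ntrk2 transcripts begin at the same codon, chr13:58808729-58808731 on the plus strand, although the encoded receptors range from 466 to 821 residues. The 3 Ntrk3 transcripts with a leader of 6 bases or more share chr7:78577781-78577783 on the minus strand and encode 612 to 839 residues. The long Ntf3 form begins at chr6:126164745-126164747 and the short one at chr6:126102500-126102502, both on the minus strand, Ngfr at chr11:95587556-95587558 on the minus strand, and Sort1 at chr3:108284141-108284143 on the plus strand. An A or G stood 3 bases before the start codon in 8 of the 9 contexts, beside 82.4% of 41087 coding transcripts of the annotation. A G followed the codon in 3 contexts, those of the long Ntf3 form, Ntrk3 and Sort1, beside 48.5% of transcripts. For these bases the members were counted by distinct context and the annotation by transcript, so the shares are not in the same unit. A further ATG lay in the leader of 7 of 11 Bdnf, 3 of 3 Ntf3, 5 of 7 Ntrk2 and 2 of 3 Ntrk3 transcripts, beside 56% of all, and in none of the Ngfr or Sort1 transcripts. The counts are per gene, so no value can be given to one start, one leader, or the kinase-bearing against the truncated form of TrkB or TrkC.

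The genes themselves differ widely in length. In mm10, Bdnf (ENSMUSG00000048482) spans chr2:109674700-109727007 with 6217 bases of merged exons, and Ntf3 (ENSMUSG00000049107) spans chr6:126101412-126166910 with 1714 bases. Ntrk2 (ENSMUSG00000055254) spans chr13:58806569-59133970 with 19292 exonic bases, and Ntrk3 (ENSMUSG00000059146) spans chr7:78175959-78738012 with 30170. Ngfr (ENSMUSG00000000120) spans chr11:95568818-95587735 with 3446 exonic bases and Sort1 (ENSMUSG00000068747) chr3:108284082-108361511 with 7569. Antisense genes overlap exons of Bdnf (Gm45346) and of Sort1 (Gm12523), but counting used strand, and they drew at most 3 reads and 0 reads in any library.

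The libraries held 4899718 to 16460545 counts in genes, and a single gene that overlaps ribosomal RNA, Gm42418, took 15.3% to 42.6% of them. Levels are given as CPM, the counts per 1000000 of a library size scaled by TMM, which sets the bulk of genes equal between libraries. The summed CPM of 6 neuronal marker genes lay between 3305 and 3930, and all 6 were counted in every library. Astrocyte markers were also present. Their sum was 3620 in IP replicate 1 and 2956 in total RNA replicate 1, but 1553 and 1410 in the replicate 2 libraries, and all 7 markers tested were lower in replicate 2 in both kinds of library. Microglial markers summed to 60.3 and 60.0 CPM in the replicate 1 libraries and to 6.82 and 4.92 in the replicate 2 libraries. Oligodendrocyte lineage markers summed to 88.7 and 70.1 CPM in IP replicates 1 and 2 and to 81.6 and 66.3 CPM in total RNA. Within that list Mbp lay between 32.7 and 44.2 CPM, whereas Mog, which marks mature oligodendrocytes, had at most 1 count in any library. Endothelial or mural markers summed to 24.4 and 6.28 CPM in the IP and to 22.2 and 8.37 CPM in total RNA. Most of that was mural Pdgfrb (5.02 to 22.4 CPM), and endothelial Cldn5 had 0 counts. Fewer cells of a type and less RNA per cell cannot be told apart in these bulk samples.

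Among the ligands, Bdnf was counted 919 and 1955 times in IP replicates 1 and 2 and 289 and 948 times in the total RNA libraries. These are 66.3 and 175.3 CPM in the IP, against 64.3 and 155.6 CPM in total RNA. The replicate 2 libraries were the high ones in both groups, and the groups overlapped throughout. Ntf3 was near the limit of detection, with 5 and 10 counts in the IP libraries and 3 and 5 in the total RNA libraries, and it did not pass the filter on low counts. Its level was 0.361 to 0.897 CPM.

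Of the receptors, Ntrk2 was the most abundant member, at 1061 and 841 CPM in the IP, against 928 and 816 CPM in total RNA. IP replicate 1 was highest, and total RNA replicate 1 lay between the 2 IP libraries. Ntrk3 hardly varied, with 129 and 118 CPM in the RPS2 IP and 129 and 118 CPM in total RNA. Sort1 was counted at 270 and 197 CPM in the IP and 234 and 172 CPM in total RNA, so the IP library was the higher one within each replicate number although the groups overlapped. Ngfr rested on 10 to 35 counts per library, or 2.53 and 0.897 CPM in the IP, against 2.45 and 2.95 CPM in total RNA, and IP replicate 2 was the low one.

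**Figure D1:**
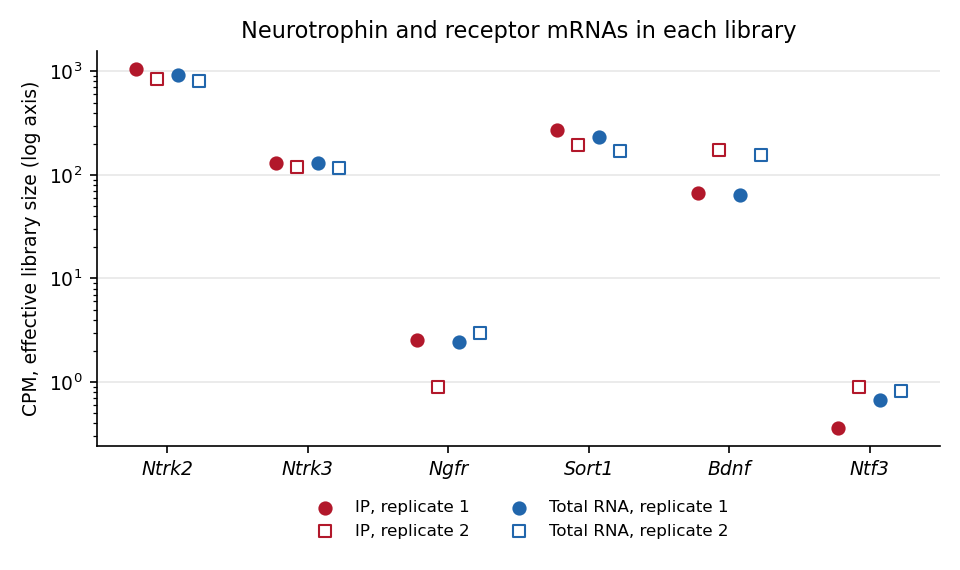
CPM of each of the 6 genes in the 4 libraries on a log axis, 1 point per library, in red for the IP and blue for total RNA, filled for replicate 1 and open for replicate 2. Bdnf separates the replicate numbers (64.3 and 66.3 against 155.6 and 175.3 CPM), whereas Ntrk3 stays between 118 and 129 CPM.

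To compare genes with each other, counts were divided by exonic length and scaled to a sum of 1000000 per library (TPM). Ntrk2 led at 142 ± 19.7 TPM in the IP and 158 ± 56.8 TPM in total RNA (mean ± SD, n = 2). Sort1 followed at 87.8 ± 7.06 and 91.1 ± 21.6 TPM and Bdnf at 62.8 ± 53.7 and 71.3 ± 65.0 TPM. Ntrk3 stood at 11.96 ± 2.86 and 14.4 ± 5.53 TPM, Ngfr at 1.32 ± 0.548 and 2.88 ± 1.61 TPM, and Ntf3 at 1.179 ± 0.9754 and 1.60 ± 0.912 TPM. Sort1 and Bdnf are neighbours in this order that did not differ beyond their spread, and the same holds for Ngfr and Ntf3. TPM also carries the uneven share of Gm42418, and without that gene Ntrk2 came to 331 TPM in the IP and 302 TPM in total RNA, with the order within each library unaffected. In total RNA, Ntrk2 exceeded 95.2% of the genes tested per length, Sort1 90.2%, Bdnf 87.2% and Ntrk3 52.7%, whereas Ngfr exceeded 15.5% and Ntf3 7.94%.

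Ratios within a library do not depend on the scaling. TrkB transcript exceeded TrkC transcript per length 12.9-fold and 11.1-fold in the IP libraries and 11.3-fold and 10.8-fold in the total RNA libraries. With the longest transcript as the length the ratio lay between 15.6 and 18.5. Sort1 per length was 0.537 to 0.648 of Ntrk2 in the 4 libraries. The ratio of sortilin to BDNF transcript was 3.34 in IP replicate 1 and 2.996 in total RNA replicate 1, but 0.921 and 0.907 in the replicate 2 libraries. Receptor over ligand, Ntrk2 over Bdnf, was likewise 5.16 and 4.66 in the replicate 1 libraries and 1.55 and 1.69 in the replicate 2 libraries. Of the summed per-length level of the 6 genes, Bdnf made up 10.02% and 10.9% in replicate 1 and 27.5% and 26.3% in replicate 2. The ratios among Sort1, Ntrk2 and Bdnf and these shares use exonic length. With the longest transcript as the length, mean Ntrk2 came to 278 TPM in the IP and 300 TPM in total RNA. Sort1 then came to 86.4 and 87.0 TPM and Bdnf to 80.4 and 87.9 TPM. Ratios to Ntrk2 and the shares therefore depend on the length chosen.

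**Figure D2:**
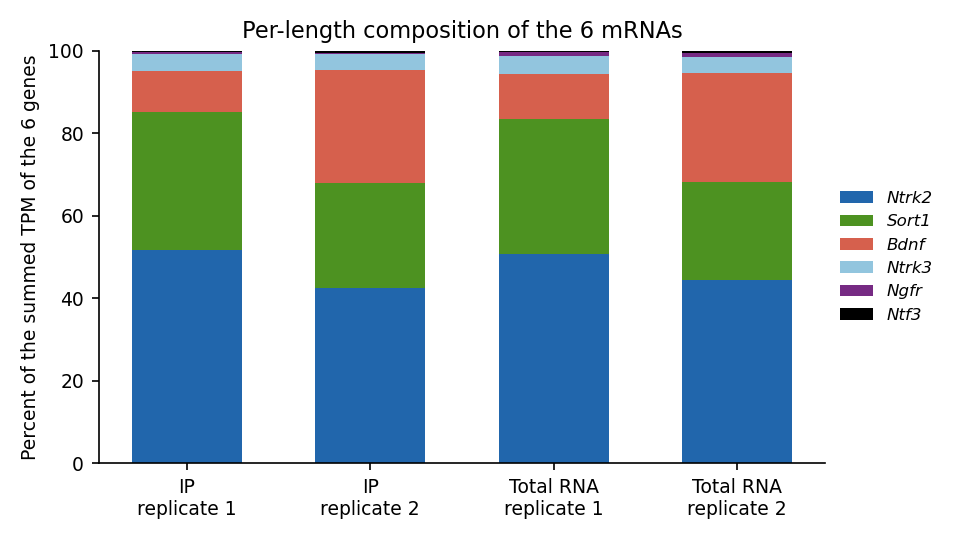
Share of each gene in the summed per-length level of the 6 genes, as stacked bars in percent from 0, 1 bar per library. Bdnf takes 10.02% and 10.9% in the replicate 1 libraries and 27.5% and 26.3% in the replicate 2 libraries, and the IP and total RNA bars of one number resemble each other.

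The ratio of IP to total RNA within each replicate number stood close to 1 for the well-counted members. TMM sets the bulk of genes there, and the median log2 ratio of all genes tested was 0.012 and 0.0075 in replicates 1 and 2. For these members, 60.7% (Sort1, replicate 1) to 100% (Ntrk3, replicate 1) of the genes tested lay at least as far from 0. On the log2 scale, with a prior count of 2, Ntrk3 gave 0.000069 and 0.0032 in replicates 1 and 2. Bdnf gave 0.045 (95% exact counting interval -0.15 to 0.24) and 0.17 (0.060 to 0.29). Ntrk2 gave 0.19 (0.14 to 0.24) and 0.043 (-0.0063 to 0.093). Sort1 gave 0.20 (0.10 to 0.30) and 0.19 (0.088 to 0.30), the only one of the 4 whose intervals lay above 0 in both replicates. The intervals cover counting error only and take the TMM scaling as given. Scaled by library totals instead, Sort1 in replicate 2 came to 0.046 (-0.061 to 0.15) and no longer stood above 0, Bdnf in replicate 2 came to 0.023 (-0.089 to 0.14), and Ntrk2 (-0.11, -0.16 to -0.055) and Ntrk3 (-0.15, -0.28 to -0.012) in replicate 2 lay below it. Of all genes tested, 66.5% had the same sign in both replicate numbers, so agreement in sign alone sets no gene apart.

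Ngfr was the member with the largest gap in a pair. Its log2 ratio was 0.043 in replicate 1 and -1.503 in replicate 2, where 10 IP reads stood against 18 total RNA reads in a library of lower total. The exact interval in replicate 2, -2.998 to -0.53 around -1.72 without the prior count, excluded 0, and that in replicate 1 did not (-0.96 to 1.17). Ntf3 gave -0.61 and 0.10 with intervals that held 0 in both replicates, so a difference of Ntf3 was not detectable at this depth.

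**Figure D3:**
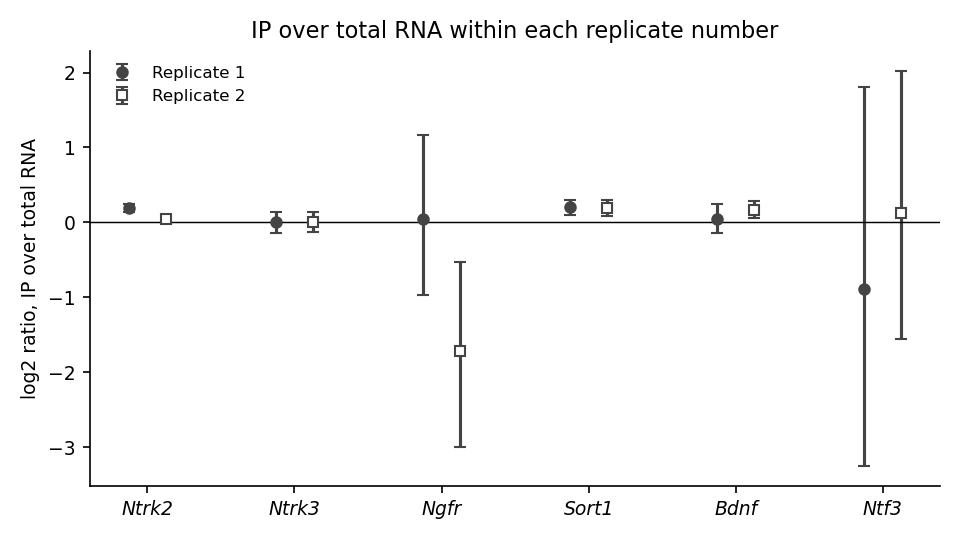
log2 ratio of IP to total RNA CPM for the 6 genes within replicates 1 and 2, computed from the counts without a prior count, as points with 95% exact counting intervals and a line at 0. Ntrk3 sits on the line, Sort1 lies above it in both replicates (0.20 and 0.19), and Ngfr and Ntf3 have wide intervals.

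Across all 12336 genes tested by edgeR's quasi-likelihood test, 0 (0%) differed between IP and total RNA at a Benjamini-Hochberg adjusted p of 0.05, and 349 (2.83%) had an unadjusted p under 0.05. DESeq2 called 0 genes higher and 5 lower. None of the 5 members tested was called by either tool, and 0 had an unadjusted p under 0.05. The fold changes were 0.13 ± 0.60 for Bdnf, 0.12 ± 0.23 for Ntrk2, 0.0019 ± 0.20 for Ntrk3, 0.20 ± 0.27 for Sort1 and -0.64 ± 0.66 for Ngfr (log2 ± SE), with an adjusted p of 1.00 for each. The 95% intervals still held a 2-fold change in either direction for Bdnf (-1.37 to 1.64) and Ngfr (-2.31 to 1.02), whereas Ntrk3 was bounded between -0.49 and 0.50. The IP and total RNA libraries overlapped in all 5 members tested. They did not overlap in 31.8% of all genes, 16.9% with the IP above and 14.9% with the IP below. A random order of 2 against 2 libraries would give a share of 0.333, so the overlap does not set the members apart.

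Because total RNA was taken from the samples that went into the IP, the replicate number was also entered as a block. Of all genes, 14.2% were then called, 6.63% higher and 7.55% lower in the IP, and none of the 5 members was among them. Of all genes 26.1% had an unadjusted p under 0.05, and of the members only Sort1 did. Sort1 came nearest, at 0.20 ± 0.099 with an interval of 0.0036 to 0.39 (adjusted p = 0.181). Bdnf was at 0.12 ± 0.11 (-0.095 to 0.33, adjusted p = 0.537) and Ntrk2 at 0.12 ± 0.10 (-0.080 to 0.32, adjusted p = 0.497). Ntrk3 was at 0.0017 ± 0.10 with an interval of -0.20 to 0.21. The intervals of these 4 genes reached no further than -0.20 and 0.39 in this fit, whereas that of Ngfr (-0.75 ± 0.50) ran from -1.73 to 0.23. With the block, edgeR set the prior degrees of freedom to infinity, and the same held with the offset given next. Each SE, interval and p of these fits therefore rests on a variance pooled over genes, not on the spread of that gene. With an offset for GC content and length beside the block, 3.81% of genes were called higher and 3.1% lower, again with no member among them. There Ntrk2 came nearest, at 0.28 with an interval of 0.072 to 0.49 (adjusted p = 0.0910), before Sort1 at 0.24 (0.043 to 0.44, adjusted p = 0.142). In the same fit Ntrk3 moved to 0.13 (-0.076 to 0.34) and Bdnf turned to -0.084 (-0.30 to 0.13).

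For Bdnf the larger differences lay between the replicate numbers, which have no test here. Bdnf in replicate 2 was 2.64-fold its level in replicate 1 in the IP (95% exact counting interval 2.44 to 2.86) and 2.42-fold in total RNA (2.12 to 2.77). A difference at least as large in size was found for 5.33% of the genes tested in the IP and 8.51% in total RNA, and 1.54% of genes were at least 2-fold higher and 5.46% at least 2-fold lower in replicate 2 in both. Sort1, Ntrk2 and Ntrk3 were lower in replicate 2, with a log2 difference of -0.45 for Sort1 in both kinds of library, -0.33 and -0.19 for Ntrk2, and -0.13 for Ntrk3 in both. Ngfr, on few reads, differed by -1.29 in the IP and 0.25 in total RNA. With library totals in place of TMM, Bdnf kept its direction at 1.81 and 1.82, whereas Ntrk2 (0.079 and 0.36) and Ntrk3 (0.29 and 0.42) changed sign and Sort1 came to -0.041 and 0.098. Astrocyte and microglial markers were lower in the same replicate 2 libraries, as given above, and their part in these differences was not tested.

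Ntf5, the gene of neurotrophin-4, had 0 counts in every library, which allows up to 0.667 CPM in the shallowest case by a floor of 3 counts per library.

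The genes with the pattern most like that of Bdnf over the 4 libraries were Sqle, which encodes squalene epoxidase of cholesterol synthesis, Pgk1, a glycolytic enzyme, and Pak3, a kinase downstream of Rac and Cdc42. Likeness was the Euclidean distance between centred log2 CPM values among the 5003 genes that no library held with fewer than 100 counts. Sqle lay at a distance of 0.0767, with 42.9 and 121 CPM in the RPS2 IP and 42.0 and 101 CPM in total RNA, Pgk1 at 0.103 and Pak3 at 0.212. Only 7 genes of the 5003 came within 0.25 of Bdnf. The flatter patterns were common, with 487 genes within 0.25 of Ntrk2, 829 of Ntrk3 and 270 of Sort1. Among the nearest to Ntrk2 were Fads2, a fatty acid desaturase, and Ntm, the cell adhesion protein neurotrimin. Nearest to Ntrk3 were Dyrk1a, Haghl and Cask, and nearest to Sort1 were Tspan4, Rab21 and Drp2. No gene came within 0.25 of Ngfr, and its nearest, Pla2g6, Ptma and Zc3h18, lay 0.469 to 0.544 away. Ngfr had 10 to 35 counts per library, below the 100 asked of the genes compared. How far counting error sets its pattern apart was not tested.

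Genes that BDNF is known to induce were compared between the replicate numbers in the same way. Of 17 such genes, 14 were higher in replicate 2 in both IP and total RNA (82.4%), beside 37.4% of all genes tested, and 2 were lower in both. Their median difference was 0.73 in the IP and 0.78 in total RNA on the log2 scale. By library totals alone 16 of the 17 were higher, beside 70% of all genes. In the other pathway lists, described below, the share higher in both with TMM was 45% for Trk adaptors and effector kinases. It was 50% for Trk trafficking and turnover, 40% for the sortilin family and p75 partners and 33.3% for precursor processing and release. Regulators of Bdnf transcription had 16.7%. Differences between the lists were not tested. Arc, an immediate early gene that acts at synapses, stood at 122 and 232 CPM in the IP and 155 and 312 CPM in total RNA. The transcription factor gene Fosb stood at 87.8 and 170 CPM in the IP, against 72.7 and 125 CPM in total RNA. Arc and Fosb are named for their calls between IP and total RNA, given below, and not as typical of the list. The 2 genes lower in both were Egr3 (log2 difference -0.42 in the IP and -0.54 in total RNA) and Homer1 (-0.23 and -0.081). Neuronal activity is also known to induce many genes of this list.

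**Figure D4:**
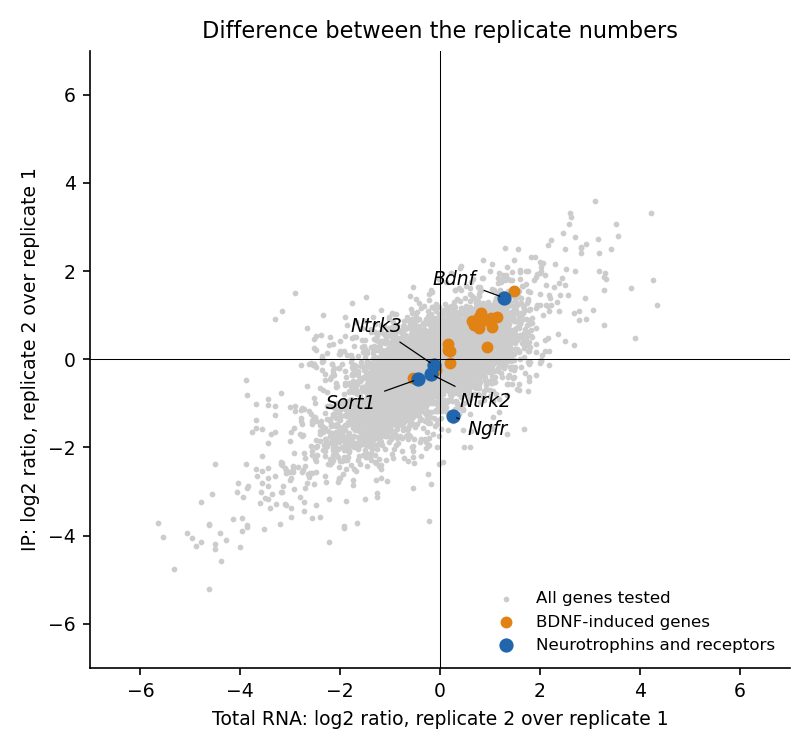
log2 ratio of replicate 2 to replicate 1, total RNA on the horizontal and IP on the vertical axis, 1 point per gene, with all 12336 genes tested in grey, the BDNF-induced genes in orange and the 5 members tested in blue. Bdnf lies at the upper right (1.27 and 1.40) among 14 of 17 BDNF-induced genes above 0 on both axes, and Sort1 (-0.45 on both axes), Ntrk2 and Ntrk3 lie below 0 on both, with Ngfr apart at 0.25 and -1.29.

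The other genes of the pathway were taken from 6 lists with 100 genes, all of which passed the filter on low counts. Neither edgeR nor DESeq2 called any of them (0) when no block was used, and 2 had an unadjusted p under 0.05 by edgeR and 1 by DESeq2. Blocking by replicate number gave 11 genes higher and 9 lower in the IP, or 20.0% beside 14.2% of all genes. With GC content and length as an offset, 8 were higher and 3 lower, or 11.0% beside 6.91% of all genes, and 7 genes were called with the same sign in both. DESeq2 with the block called 9, and gave 28 no adjusted p. All fold changes (log2) and adjusted p-values for single pathway genes that follow are from edgeR with the block, and so rest on the variance pooled over genes.

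The sortilin family and the partners of p75 had 1 gene higher and 2 lower out of 10, with a median of -0.18 beside 0.011 for all genes. Arhgdia, whose product holds small GTPases inactive and binds p75, was 207 and 230 CPM in the RPS2 IP and 156 and 155 CPM in total RNA, and it was higher by 0.48 ± 0.10 (adjusted p = 7.1e-05). Lingo1, a co-receptor of p75 in the Nogo receptor complex, was 546 and 385 CPM in the IP and 689 and 487 CPM in total RNA. Its change of -0.34 ± 0.098 (adjusted p = 0.00808) was lost with the GC and length offset (-0.11, adjusted p = 0.604). Maged1, which encodes a p75-binding protein, was lower, with a change of -0.31 ± 0.10 (adjusted p = 0.0182) and kept its call with the offset. Among 9 genes for precursor processing and release, Furin alone was called. Furin, the convertase that cleaves neurotrophin precursors in the Golgi, was 49.0 and 40.7 CPM in the IP against 80.5 and 63.5 CPM in total RNA, lower, with a change of -0.68 ± 0.12 (adjusted p = 6.8e-07), and the call held with the offset (adjusted p = 0.0238).

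Adaptors and effector kinases of Trk receptors had 7 genes higher and 5 lower of 40, with a median of 0.075, and 4 higher and 0 lower with the offset. Grb2, the adaptor that brings Sos to activated receptors, was 68.9 and 113 CPM in the IP, against 54.0 and 64.0 CPM in total RNA, a change of 0.60 ± 0.11 (adjusted p = 1.1e-05). Rps6ka5, a nuclear kinase downstream of MAP kinases, had the largest change of the list called, 0.91 ± 0.24 (adjusted p = 0.00342), from 8.67 and 5.91 CPM in total RNA to 14.6 and 12.4 CPM in the IP. Akt1 and Akt2, which encode isoforms of one kinase, were called in opposite directions. Akt1 was at 51.9 and 48.1 CPM in the RPS2 IP and 80.5 and 61.9 CPM in total RNA, lower, with a change of -0.50 ± 0.12 (adjusted p = 4.5e-04). Akt2 was at 29.4 and 21.97 CPM in the IP and 18.4 and 18.7 CPM in total RNA, higher by 0.45 ± 0.16 (adjusted p = 0.0469). With the offset Grb2, Rps6ka5 and Akt2 stayed called, and Akt1 (-0.29, adjusted p = 0.122) did not. Rps6ka3 (0.65 ± 0.21, adjusted p = 0.0187) and Shc2 (-0.52 ± 0.16, adjusted p = 0.0115) were also called with the block. Their calls were lost with the offset, at changes of 0.52 and -0.41.

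Of 12 genes for the trafficking and turnover of Trk receptors, 2 were higher, the endosomal GTPase genes Rab7 (0.48 ± 0.11, adjusted p = 1.9e-04) and Rab11a (0.37 ± 0.12, adjusted p = 0.0291), and neither was called with the offset (0.31 and 0.051). None of 12 regulators of Bdnf transcription was called with the block, although 2 were higher with the offset. Among the BDNF-induced genes 1 was higher and 1 lower of 17. Fosb was higher in the IP by 0.37 ± 0.11 (adjusted p = 0.00799) and kept its call with the offset (adjusted p = 1.1e-04). Arc was lower, with a change of -0.39 ± 0.10 (adjusted p = 0.00193), and its call was lost with the offset (-0.26, adjusted p = 0.113).

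**Figure D5:**
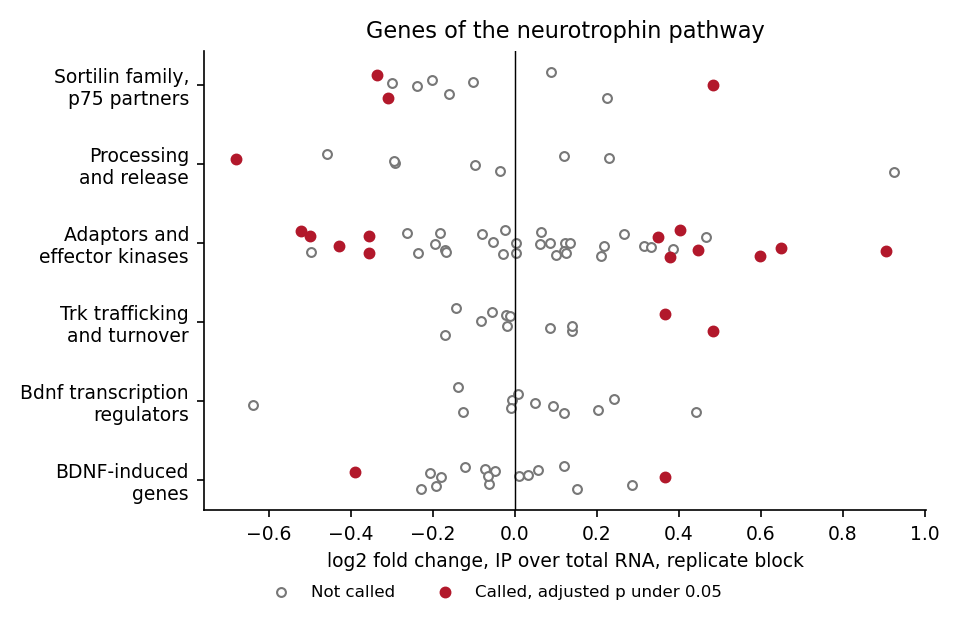
log2 fold change of IP over total RNA with the replicate block for the 100 pathway genes tested, 1 point per gene in rows by list, filled where the adjusted p was under 0.05. The 20 filled points lie on both sides of 0, with Rps6ka5 (0.91) farthest above and Furin (-0.68) farthest below.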

How the data were processed

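The authors deposited one featureCounts table (version 1.5.3, stranded) of raw counts per gene for each of the 4 libraries. Per the methods, reads were trimmed, aligned to mm10 with STAR and counted in exons; no removal of PCR duplicates is named, so counting intervals cover counting error only. Gene identifiers were joined to GENCODE M21, and 42 of 31053 had no symbol there. Counts were tested with edgeR 4.0.16 (filterByExpr, TMM, quasi-likelihood test, two-sided, Benjamini-Hochberg adjustment over 12336 genes, R 4.3.3). DESeq2 1.42.0, limma 3.58.1 voom, other scalings and filters, a GC and length offset and thinning were alternatives. Total RNA was taken from the same samples as the IP, and deviations of same-numbered libraries correlated at 0.733, so the number was used as a block. The smallest p of an exact two-sided permutation test of 2 against 2 is 0.333, so single values were not tested. On simulated counts, the edgeR fit without the block did not recover the changes put in, whereas the fit with it recovered most. The simulation kept the difference between the replicate numbers and took its dispersion from the block fit, so it cannot decide between the fits.

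The members and gene lists were chosen with earlier results of these data known. Genes named were the 6 members, Ntf5, up to 6 genes per list called without the block or else with it (mean of at least 10 CPM, largest change), and the 3 genes nearest to each member tested. Egr3 and Homer1 were added as the BDNF-induced genes lower in replicate 2 in both kinds of library. Library totals ran from 4899718 to 16460545 counts. A few genes that this rule names are not reported here.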

Additional observations from a re-analysis of the deposited data

How the results depend on the processing

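None of the 5 members tested was called under any of the 14 alternatives or on leaving out a library, except that Ngfr had no adjusted p from DESeq2 with the block and so could not be called there. The numbers of all genes called higher and lower were 818 and 931 with the replicate block, 158 and 382 with the block by DESeq2, 283 and 878 with the block and library totals alone, 677 and 888 with the block and thinning to the lowest total, 878 and 926 with the block and at least 10 counts in every library, 470 and 382 with the block and the GC and length offset, and 685 and 927 with the block by limma-voom. Without the block, no filter on low counts gave 14 lower and DESeq2 5 lower. Leaving out 1 library gave 0 higher and 1 to 8 lower, where the lone library of a group is assumed to vary like the other group. Pathway genes called were 11 higher and 9 lower with the block and 8 higher and 3 lower with the block and offset, and 9 in either direction with the block by DESeq2. Bdnf reversed to -0.084 with the block and offset. Ntrk3, at 0.0019 in size, reversed with library totals (-0.089), median-ratio factors (-0.016), DESeq2 (-0.016), without Gm42418 and mitochondrial mRNAs (-0.00072) and thinned (-0.0054), and with the block by DESeq2 (-0.017), library totals (-0.081) and thinning (-0.0041). On leaving out 1 library the fold change ran from -0.74 (without IP replicate 2) to 0.91 for Bdnf, -0.055 to 0.28 for Ntrk2, -0.065 to 0.067 for Ntrk3, -1.58 to -0.11 for Ngfr and -0.049 to 0.44 for Sort1. The cause of these shifts was not tested. The depth limits Ngfr and Ntf3, with at most 35 and 10 counts in a library.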
